A study of Mus musculus with 2 samples.

Results

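The 7 genes Emx1, Emx2, Otx1, Otx2, Lhx2, Lhx9 and Tbr1 encode transcription factors of the dorsal forebrain. Their trimethylation of histone H3 at lysine 4 (H3K4me3) was read from the deposited peak list of mouse neural progenitor cells. Every listed peak that touched one of these genes, or the 10 kb on either side of it, was taken. This gave 11 of the 19265 peaks in the list. They lay at 5 of the 7 genes, and Otx2 and Tbr1 had none.

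The H3K4me3 library, labelled "con", and an input library of the same chromatin without pull-down were the 2 samples. The cells are labelled as adult neural progenitor cells with no treatment, and both samples grew in N2 medium with EGF and bFGF. The labels give no strain, age, genotype or dissected region, and the deposited list is named after EGF. Tags left by the peak caller's filter numbered 18156769 for H3K4me3 and 17831241 for the input. There is no replicate, so no error between cultures and no test can be given, and the values describe 1 library.

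The forebrain vesicle is divided early into a dorsal part, the pallium, which forms the cerebral cortex and hippocampus, and a ventral part, which forms the basal ganglia. The pallium is set apart by homeodomain and LIM-homeodomain factors in dividing progenitors, and T-box factors follow as its neurons mature. Progenitors of the adult ventricular wall are known to keep traces of the embryonic region they came from. In mammals H3K4me3 lies around transcription start sites and favours those rich in CpG dinucleotides. It marks active genes and also poised ones, which carry the repressive mark H3K27me3 as well. Neither RNA nor H3K27me3 was analysed here, so a peak does not tell active from poised.

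The labelled cell type was checked against defining markers. A peak lay within 1 kb of a start at 8 of 9 neural stem and progenitor genes, with 1841 tags at Sox2 and 871 at Nes. The exception was Msi1, with 5 peaks in its window, 4 of them over the gene. None of 5 choroid plexus genes (Ttr, Kcnj13, Clic6, Folr1 and Aqp1) had a peak even within 10 kb, a tissue in which Otx2 is a known factor. At the start, peaks were listed at 2 of 4 neuronal genes, 1 of 4 oligodendrocyte genes and 1 of 3 ependymal genes. They were listed at 0 of 3 astrocyte genes, 0 of 3 microglial genes, and 0 of 3 endothelial and mural genes, where all protein-coding genes had 57.5%. Within 10 kb the counts were 2 of 4 neuronal, 2 of 4 oligodendrocyte, 3 of 3 ependymal, 2 of 3 astrocyte, 1 of 3 microglial, and 1 of 3 endothelial and mural genes, where all protein-coding genes had 66.5%. Over the gene itself a peak lay at 2 of 4 neuronal, 1 of 4 oligodendrocyte and 1 of 3 ependymal genes. It did so at 0 of 3 astrocyte, 0 of 3 microglial, and 1 of 3 endothelial and mural genes, against 60.8% of protein-coding genes.

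Promoter sequences are shown because H3K4me3 goes with CpG content across promoters, and these genes range widely in it. RefSeq's table (GRCm38.p6, the assembly that mm10 names) gives 300-base windows, 250 bases before the start and 50 from it on, for 6 of the 7 genes. Otx1 is not among them. The table holds 10 windows for these genes, of which 7 are printed 5′ to 3′ along the gene, with each CpG in capitals. The other 3 belong to further starts of Otx2.
Emx2 (chr19:59458440-59458739, plus strand): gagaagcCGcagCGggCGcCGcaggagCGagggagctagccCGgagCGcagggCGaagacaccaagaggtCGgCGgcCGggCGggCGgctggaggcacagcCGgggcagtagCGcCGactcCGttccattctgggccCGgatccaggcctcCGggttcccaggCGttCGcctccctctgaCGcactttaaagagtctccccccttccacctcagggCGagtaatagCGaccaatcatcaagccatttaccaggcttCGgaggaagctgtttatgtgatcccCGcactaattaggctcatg
Emx1 (chr6:85187681-85187980, plus strand): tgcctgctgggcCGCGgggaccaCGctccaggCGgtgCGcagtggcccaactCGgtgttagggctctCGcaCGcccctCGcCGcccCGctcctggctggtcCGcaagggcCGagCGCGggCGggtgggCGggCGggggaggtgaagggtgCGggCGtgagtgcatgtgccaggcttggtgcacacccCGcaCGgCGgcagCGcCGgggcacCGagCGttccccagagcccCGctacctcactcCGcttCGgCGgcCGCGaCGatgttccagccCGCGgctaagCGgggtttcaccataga
Lhx2, first start (chr2:38339031-38339330, plus strand): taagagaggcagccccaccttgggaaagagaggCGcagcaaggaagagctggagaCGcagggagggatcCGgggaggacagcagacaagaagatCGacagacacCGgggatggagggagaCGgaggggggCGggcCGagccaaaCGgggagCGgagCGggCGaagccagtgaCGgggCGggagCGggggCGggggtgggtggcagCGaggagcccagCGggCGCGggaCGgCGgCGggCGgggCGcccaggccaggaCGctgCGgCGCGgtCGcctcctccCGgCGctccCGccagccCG
Lhx2, inner start (chr2:38351058-38351357, plus strand): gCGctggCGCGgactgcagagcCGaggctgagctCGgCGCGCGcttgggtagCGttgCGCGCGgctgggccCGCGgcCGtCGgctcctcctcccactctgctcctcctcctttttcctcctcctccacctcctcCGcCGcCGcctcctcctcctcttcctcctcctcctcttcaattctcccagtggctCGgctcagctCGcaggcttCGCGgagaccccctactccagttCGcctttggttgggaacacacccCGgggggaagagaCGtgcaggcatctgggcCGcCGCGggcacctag
Lhx9 (chr1:138842395-138842694, minus strand): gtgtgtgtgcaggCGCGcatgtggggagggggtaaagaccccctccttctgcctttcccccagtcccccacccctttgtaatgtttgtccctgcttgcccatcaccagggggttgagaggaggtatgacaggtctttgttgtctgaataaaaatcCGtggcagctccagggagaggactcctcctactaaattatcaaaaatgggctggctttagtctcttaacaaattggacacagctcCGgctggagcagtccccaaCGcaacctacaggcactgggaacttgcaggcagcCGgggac
Otx2, outermost start (chr14:48667595-48667894, minus strand): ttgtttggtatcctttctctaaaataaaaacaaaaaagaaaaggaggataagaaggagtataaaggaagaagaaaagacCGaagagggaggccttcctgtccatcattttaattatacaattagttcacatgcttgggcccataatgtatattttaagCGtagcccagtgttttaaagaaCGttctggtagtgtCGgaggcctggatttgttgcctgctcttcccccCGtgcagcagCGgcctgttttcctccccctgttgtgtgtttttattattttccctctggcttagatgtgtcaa
Tbr1 (chr2:61804203-61804502, plus strand): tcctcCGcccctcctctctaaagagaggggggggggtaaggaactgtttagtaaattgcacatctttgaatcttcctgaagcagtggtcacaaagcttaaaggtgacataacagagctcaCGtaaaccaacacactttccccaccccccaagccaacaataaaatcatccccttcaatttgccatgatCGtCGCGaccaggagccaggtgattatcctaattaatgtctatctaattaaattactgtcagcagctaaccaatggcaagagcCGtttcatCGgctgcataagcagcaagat
Emx1 and the first start of Lhx2 are dense in capitals, and Otx2, Lhx9 and Tbr1 are sparse.

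Taken as a group, the 7 genes carried the mark about as often as any protein-coding gene. A peak in the gene or 10 kb either side was found at 5 of 7 (71.4%), against 14563 of 21887 protein-coding genes (66.5%). A peak over the gene itself was found at the same 5 of 7, against 60.8% of protein-coding genes. Among the 8331 protein-coding genes within the members' length range of 6.67 to 30.5 kb, the share was 71.7%. Within 1 kb of an annotated start a peak was found at 4 of 7 (57.1%), against 57.5% of protein-coding genes. These 4 were Emx2, Otx1, Lhx2 and Lhx9. Otx1 has no start in the table, and for it, as for 4395 of the protein-coding genes, either end of the gene was used. The strongest peak per gene had a median fold enrichment over the input of 39.8 over the 5 marked members, against 40.5 over all marked protein-coding genes. Shares and the median of the strongest peaks were thus near those of all protein-coding genes, while the single genes differed widely. Over all 11 peaks the medians were below those of the whole list. They were 19.5 against 27.97 in fold enrichment and 137 against 198 in tags.

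**Figure D1:**
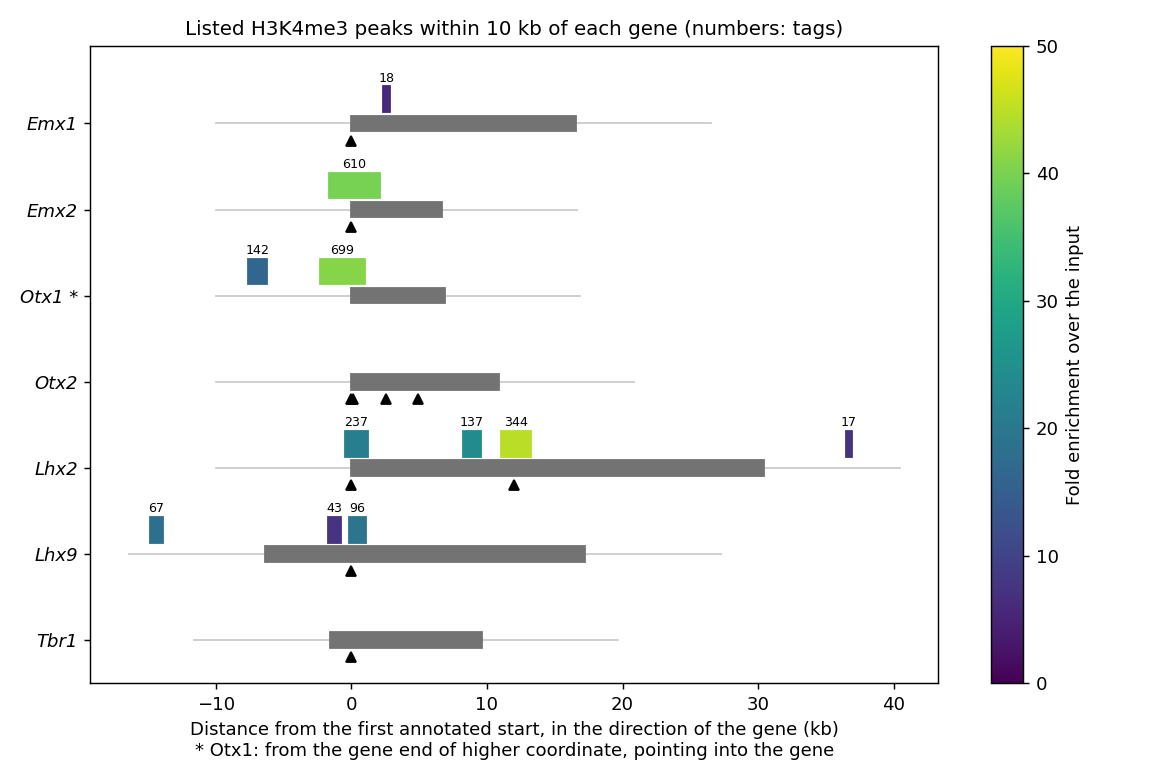
Listed H3K4me3 peaks (coloured boxes) over each gene (grey bar) and 10 kb either side (thin line), by distance in kb from the first annotated start (triangles mark starts); colour gives fold enrichment over the input and the number above a box its tags. Otx2 and Tbr1 are bare, Emx2 and Otx1 each have a wide peak at 1 end, and Lhx2 and Lhx9 have 4 and 3 peaks.

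Emx2, the homeodomain factor that specifies caudal and medial cortex and the hippocampus, had a single peak with many tags over its start. The gene (Gene ID 13797) lies on chromosome 19 from 59458690 to 59465357. The peak ran from 59457021 to 59460821, a length of 3801 bp. It held 610 tags (exact Poisson 95% interval 562.5 to 660.4, which like all such intervals here covers counting error only), or 160 tags per kb, with a fold enrichment of 39.8. More tags than 93.2% of listed peaks held were found in it. Of the 12577 protein-coding genes with a peak at the start, 88.2% had fewer tags in the strongest one. A lower fold enrichment there was found at 51.4% of them. The whole promoter window lay under it.

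The Emx2 peak was wide on both sides of the start, with its summit far into the gene. The summit lay 1040 bp downstream of the start. Among 7851 protein-coding genes with 1 annotated start and 1 peak there, the median summit lay 209 bp downstream (quartiles 109 and 359). A summit as far or farther downstream occurred in 1.77% of these. The peak reached 1669 bp upstream and 2131 bp downstream of the start, against medians of 803 and 1290 bp. Upstream it ran over the limit of higher coordinate of Emx2os, the antisense RNA gene of the locus. That limit lies 55 bp from the start of Emx2, and no strand or start is given for Emx2os. The list cannot assign the mark to 1 of these neighbours.

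Emx1, the paralog of Emx2 that labels cortical progenitors and the excitatory neurons derived from them, had 1 weak peak. The gene (Gene ID 13796) lies on chromosome 6 from 85187931 to 85204463. Its single peak (85190254 to 85190761, 508 bp) held 18 tags (95% interval 10.7 to 28.4), or 35.4 per kb, with a fold enrichment of 5.52. Only 0.908% of listed peaks held fewer tags, and its false discovery rate of 0.3% was close to the highest in the list, 0.32%. The peak began 2323 bp downstream of the start, so none of the promoter window lay under a peak. The gene table gives no exons, so whether the peak is exonic or intronic is not given. Over their peaks, Emx2 held 610 tags on 3801 bp and Emx1 18 tags on 508 bp. The ratio of 33.9 has a 95% counting interval of 21.3 to 57.6. It is not corrected for peak length, and the interval leaves out that only called peaks are counted. Per kb the Emx2 peak held 160 tags and the Emx1 peak 35.4.

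Otx1, a homeodomain factor of cortical progenitors and deep-layer neurons, carried the peak with the most tags among the 11. The gene (Gene ID 18423) lies on chromosome 11 from 21994764 to 22001651. A peak of 3302 bp (22000653 to 22003954) lay across the end of higher coordinate, with 999 bp inside the gene. It held 699 tags (95% interval 648.1 to 752.8), or 212 per kb, the highest density of the 11 peaks, with a fold enrichment of 40.9. More tags were found in it than in 95.9% of listed peaks. Of protein-coding genes with a peak at the start, 93.0% had fewer tags in the strongest one and 56.0% a lower fold enrichment there. The long non-coding RNA gene Gm32517, inside Otx1, ends 69 bp short of this peak, and no other annotated gene overlapped it. A further peak lay 6201 bp beyond the same end (22007852 to 22009244), with 142 tags and a fold enrichment of 16.45. This one lay inside Ehbp1, a neighbouring gene whose annotated start is far from it, at 22286795.

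Otx2, the paralog that specifies the anterior head and the rostral brain in the embryo, had no listed peak. The gene (Gene ID 18424) lies on chromosome 14 from 48656781 to 48667644 and has 4 annotated starts. The nearest peak was 41.7 kb from the gene. It lay over the long non-coding RNA genes Otx2os1 and Gm38660 (48709345 to 48710530), with 76 tags and a fold enrichment of 12.3. Across the 7324 protein-coding genes with no peak within 10 kb, the median distance to the nearest peak was 120 kb (quartiles 39.7 and 376). The distance at Otx2 was therefore close to the lower quartile. Since the weakest listed peak held 13 tags, Otx2 and its 10 kb flanks lacked a called peak at this depth, which is not a count of 0 tags.

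**Figure D2:**
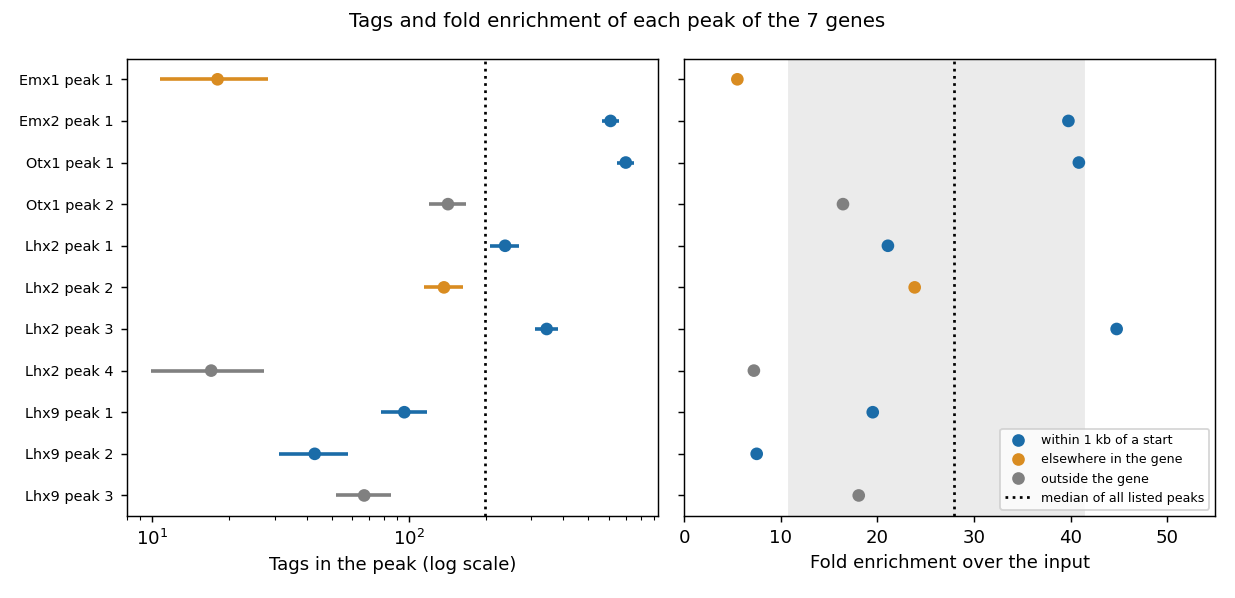
Tags in each of the 11 peaks (left, log scale, bars are exact Poisson 95% intervals) and the authors' fold enrichment (right, the grey band spans the quartiles of all listed peaks, 10.85 to 41.4). The dotted lines are the medians of all listed peaks, 198 tags and a fold enrichment of 27.97; Emx2, Otx1 and the third Lhx2 peak pass both.

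Lhx2, the LIM-homeodomain selector that gives progenitors their cortical identity and holds back the cortical hem, had 4 peaks, the most of the 7 genes. It is Gene ID 16870, on chromosome 2 from 38339271 to 38369737, with annotated starts 12.0 kb apart. Of protein-coding genes, 11.6% had 3 or more peaks in such a window, and among the 7 genes these were Lhx2 and Lhx9. At the first start lay a peak of 1724 bp (38338781 to 38340504) with 237 tags (95% interval 207.8 to 269.2) and a fold enrichment of 21.1. At the inner start lay a peak of 2197 bp (38350339 to 38352535) with 344 tags (95% interval 308.6 to 382.3) and a fold enrichment of 44.8. The inner start thus had the higher fold enrichment and the higher density, 157 tags per kb against 137 at the first start. Its fold enrichment exceeded that of 82.1% of listed peaks, and the value at the first start that of 41.9%.

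Each Lhx2 start faces a non-coding gene that runs the other way. Gm46736 starts 71 bp before the first start of Lhx2, and Gm27197 starts 568 bp before the inner start. Each start peak also covered the start of that neighbour, so the mark may belong to either gene or to both. Another peak inside Lhx2 (38347498 to 38348861) held 137 tags with a fold enrichment of 23.9. It lay 2447 bp from the nearest start of Lhx2 and within Gm27197. The last peak lay 6032 bp beyond the gene (38375769 to 38376194). With 17 tags and a fold enrichment of 7.23 it was the peak with the fewest tags of the 11.

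Lhx9, the closest paralog of Lhx2 and a factor of pallial and thalamic neurons, had 3 peaks, of which the strongest had fewer tags than the 3 peaks over Lhx2. It is Gene ID 16876, on chromosome 1 from 138825186 to 138848839. Its annotated start lies inside these limits, 6.39 kb from the upstream end. The peak over the start (138841386 to 138842640) held 96 tags (95% interval 77.8 to 117.2) with a fold enrichment of 19.5. A second, 574 bp further upstream (138843215 to 138844137), held 43 tags with a fold enrichment of 7.52. Of the 12577 protein-coding genes with a peak at the start, 51.3% had fewer tags in the strongest one than Lhx2, and 9.02% fewer than Lhx9. Summed over the peaks at their starts, Lhx2 held 581 tags and Lhx9 139, a ratio of 4.18 (95% counting interval 3.47 to 5.07). The Lhx2 sum covers 2 starts, with 237 and 344 tags, and the Lhx9 sum 1 start. The ratio is not corrected for this. Over all peaks in their windows the sums were 735 tags on 5711 bp for Lhx2 and 206 tags on 3131 bp for Lhx9. The third Lhx9 peak (138856363 to 138857315, 67 tags, fold enrichment 18.1) lay 7524 bp outside the gene. It covered the start of its neighbour 2310009B15Rik at 138856854, and was the 1 peak of the 11 that lay at the annotated start of another protein-coding gene.

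Tbr1, the T-box factor of postmitotic glutamatergic neurons and deep cortical layers, had no listed peak. The gene (Gene ID 21375) lies on chromosome 2 from 61802863 to 61814114. The nearest peak was 89.7 kb away, at the start of Psmd14, a proteasome subunit gene (373 tags, fold enrichment 46.3). Eomes, its T-box paralog of intermediate progenitors, had 400 tags at the start with a fold enrichment of 28.2.

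Where a member was marked at its start, the region was of ordinary to fairly large width. Peaks at most 1 kb apart were joined into regions. The region at the start was 3801 bp wide at Emx2, 3302 bp at Otx1, 2752 bp at Lhx9 and 2197 bp at Lhx2. The median of 11610 regions at protein-coding starts was 2155 bp. The Emx2 region was wider than 90.4% of these, and the Lhx2 region wider than 51.96%. Of the 4 marked members 0 reached the widest 5%, at least 4607.5 bp, where 5.46% of protein-coding genes with a peak at the start lay. Peaks at starts held 84.2% of the 2410 tags in the 11 peaks.

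CpG content of the promoter window went with the mark across the genome, and the members held cases on both sides of this trend. Among 21255 windows of protein-coding genes, a peak lay within 1 kb of the start in 94.5% of windows with 25 or more CpGs. The share was 88.4% with 14 to 24 CpGs, 46.1% with 5 to 13 and 7.41% with 4 or fewer. The windows of Emx2 with 26 CpGs, of the first Lhx2 start with 34 and of the inner Lhx2 start with 29 lay in the richest class, and each had a peak. Otx2 had 6, 8, 16 and 11 CpGs in its 4 windows, from the outermost start inwards, and Tbr1 had 7. None of these 5 windows had a peak, the third Otx2 window with 16 CpGs among them, although 88.4% of windows in its class had one.

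The Emx1 window stood farthest from the trend. It had 37 CpGs and a GC content of 74.0%, the most CpGs of the 10 windows, and no peak within 1 kb. Of the 1551 windows with at least as many CpGs, 1487 (95.9%) had a peak, and 64 did not. Lhx9 had 6 CpGs, as the outermost Otx2 window did, and 246 of its 300 bases lay under the peak. Both fall at the low edge of the class of 5 to 13 CpGs, of which 46.1% had a peak. Of windows with 6 to 8 CpGs, 635 had a peak and 1218 did not. Of windows with 6 or fewer, 11.1% had one. The window of 300 bases says nothing of CpGs farther from the start.

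**Figure D3:**
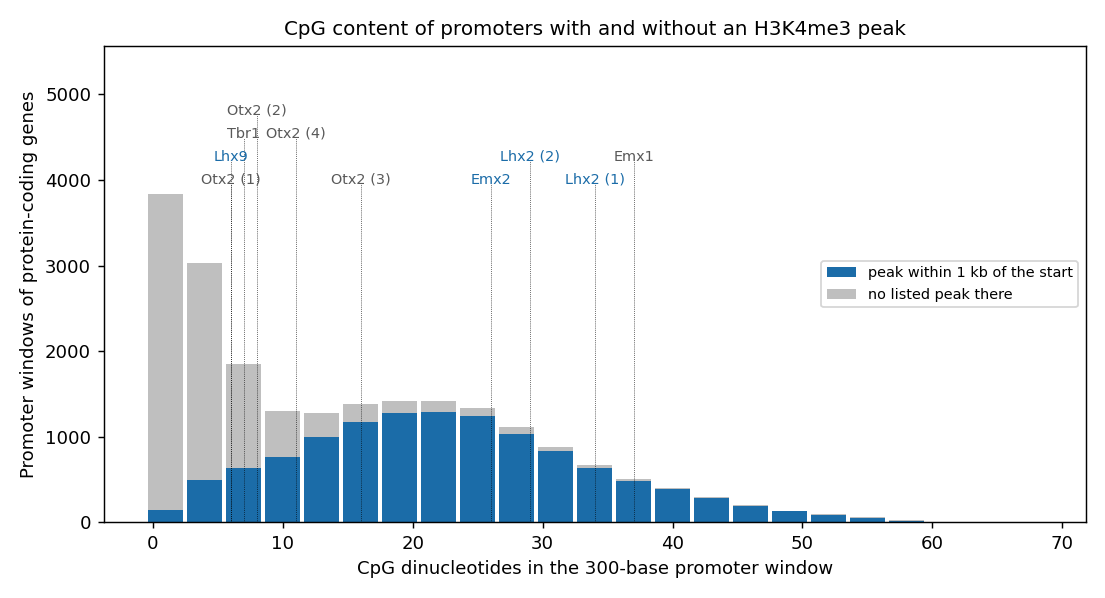
Promoter windows of protein-coding genes by their number of CpG dinucleotides (x axis), split into those with a listed peak within 1 kb of the start (blue) and those without (grey), stacked. Dotted lines mark the 10 windows of 6 members, with names in blue where a peak was listed; Emx1 (37 CpGs) is unmarked where nearly all windows are marked, and Lhx9 and the outermost Otx2 window, with 6 CpGs each, differ in the mark.

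Short motifs were searched on both strands of the windows. The homeodomain core TAATTA, which reads the same on both strands, was present in 4 of the 10 windows and in 4.54% of all windows. These 4 were the windows of Emx2, of Tbr1 and of the outermost and the third Otx2 start, and only that of Emx2 had a peak. The core was present in 7.69% of windows without a peak and in 2.18% of those with one. The 10 windows come from 6 genes, and 4 of them from Otx2. The Otx-class core TAATCC, which shares its TAAT with TAATTA, was present in the third Otx2 window and in 6.43% of all. The GC box GGGCGG, which itself holds a CpG, was present at Emx1, Emx2, Tbr1 and the first Lhx2 start, and in 46.2% of all. The CCAAT box CCAAT was present in 4 of 10 and in 38.2% of all. The TATA box TATAAA was present in the outermost Otx2 window and in 12.6% of all. These are letter matches and not measured binding, and the first and second Otx2 windows overlap.

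Other genes of forebrain patterning likewise included marked and bare ones. In the 5 lists described here, 6 genes stand in 2 lists each, and a peak within 10 kb can belong to a neighbour. Of 17 genes that pattern the pallium, 13 had a peak within 10 kb (76.5%) and 9 at the start, against 66.5% and 57.5% of protein-coding genes. The peaks with the most tags were at Nr2f1, a nuclear receptor of caudal cortex (1781 tags), Nr2e1, the Tlx receptor of neural stem cells (809), and Lef1, a Wnt effector (728). No peak was listed at Dmrt3, Wnt8b, Lmx1a and Fezf1. Of the genes of the cortical hem, Wnt8b and Lmx1a had none, and Wnt3a had a peak of 55 tags over the gene, away from its start.

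Factors of cortical projection neurons had a peak at 11 of 13 genes (84.6%) and at the start of 8 (61.5%). All protein-coding genes had 66.5% and 57.5%, shares not matched to the lists for gene length. The most tags lay at Foxp1 (882), Cux1 (787) and Zfpm2 (670). Neurod6 and Bhlhe22 had none. Tbr1, likewise a factor of these neurons, had none either. Factors of the ventral telencephalon had a peak at 10 of 16 (62.5%) and at the start of 8. The most tags lay at Olig2 (2065), Sp9 (532) and Dlx1 (422), and Nkx2-1, Dlx5, Dlx6, Lhx8, Ebf1 and Vax1 had none.

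Family relatives of the members had a peak at 11 of 16 (68.8%) and at the start of 10 (62.5%). All protein-coding genes had 66.5% and 57.5%. The strongest peak of each marked gene had a median fold enrichment of 39.8 for the members and 18.1 for these relatives. It was 31.8 for the pallial genes, 39.8 for the projection neuron factors, 18.1 for the ventral factors and 43.0 for the partner genes below. All marked protein-coding genes had 40.5, and no difference was tested. The most tags lay at Eomes (400), Lhx1 (288, away from the start, which had 100) and Lhx4 (230). Crx, the retinal member of the Otx family, and Lhx3, Lhx8, Lmx1a and Vax1 had none. Partner genes, which encode cofactors of these proteins, had a peak at 14 of 15 (93.3%) and at the start of 12 (80.0%). Lmo4, a LIM-only protein that competes for the LIM cofactor, had 1395 tags. Tle3, a Groucho corepressor, had 1075 and Ssbp3, a partner of Ldb1, 902. Ldb1, the cofactor that LIM-homeodomain proteins bind, had 603 tags with a fold enrichment of 57.9, and its paralog Ldb2 had no peak.

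Emx1 was not the only CpG-rich start without a peak. Of 29 windows of these listed genes with more than 24 CpGs, 26 had a peak within 1 kb. The exceptions were at Wnt3a with 45 CpGs, Sp8 with 32 and Lhx3 with 28. Of all windows of protein-coding genes with more than 24 CpGs, 94.5% had a peak there.

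**Figure D4:**
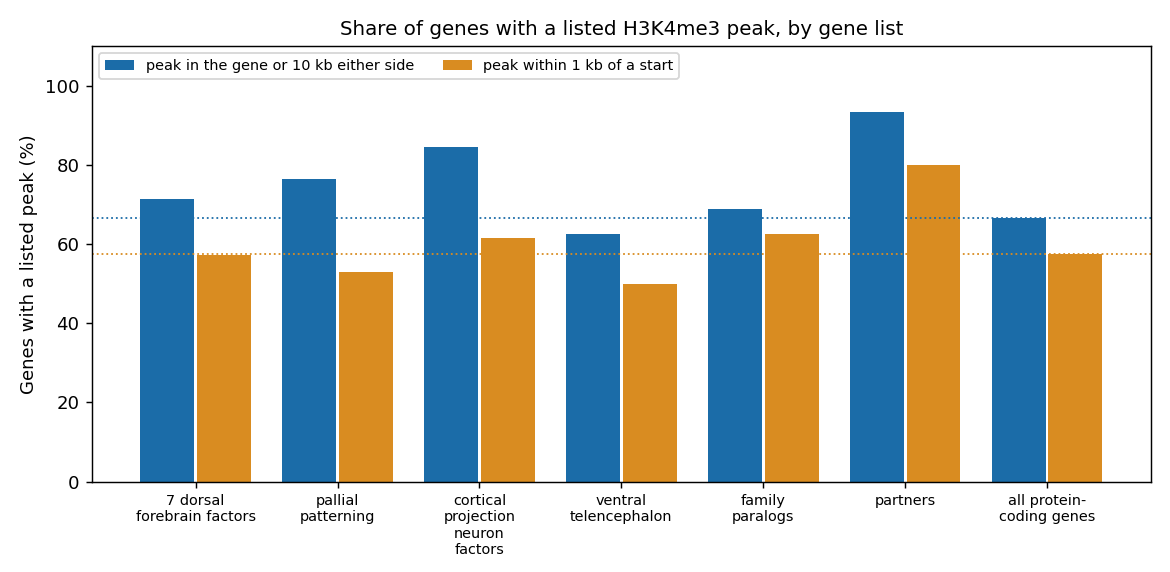
Percent of genes with a listed peak in the gene or 10 kb either side (blue) and within 1 kb of a start (orange), for the 7 genes, 5 related lists and all protein-coding genes; dotted lines carry the values of all protein-coding genes, 66.5% and 57.5%. The bars of the 7 genes, 71.4% and 57.1%, stand near these lines, and those of the partner genes are the highest.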

How the data were processed

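H3K4me3 was measured by ChIP-seq in 1 library, against 1 input library. Per the file headers, the authors called peaks with MACS 1.4.2 at a p cutoff of 1e-05, keeping at most 1 tag per position and scaling the larger library to the smaller. The submitters' processing notes name MACS2 2.1.0 and mm10, while no aligner is named in the labels or the header. The deposited list gives for each peak a tag count, not normalized, a fold enrichment (a ratio over the input), a p-value score, the -log10 of p times 10, and a false discovery rate in percent. Fold, score and false discovery rate are the authors' values; 20.4% of peaks share the score 3100. Keeping 1 tag per position limits counts in strong peaks.

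Peaks were joined to RefSeq genes (GRCm38.p6) by an overlap of at least 1 bp, and to starts within 1 kb from RefSeq's promoter table, which covered 17492 of 21887 protein-coding genes; for the rest either gene end was used. The join was tested on simulated data. All 7 genes, and in each related list the 3 genes with the most tags in 1 peak and those without a peak, are named; Ldb1, the relatives in pairs and the CpG-rich exceptions were named after their values were seen. From the lists 2 genes were left out and are not reported here. The members and lists were chosen with earlier results of these data known. PCR tags without molecular identifiers are not independent molecules. Python 3.11.15, numpy 2.4.6, pandas 2.3.3 and scipy 1.17.1 were used.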

Additional observations from a re-analysis of the deposited data

How the results depend on the processing

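Of 72 recomputed values, 66 stayed within 1.5 times the reported one. With a -log10 p of at least 10, Emx1 had 0 peaks and the members with a peak numbered 4 of 7, against 65.2% of protein-coding genes. At that bound Lhx2 and Lhx9 had 3 peaks each. With no flank and with flanks of 5 kb, Otx1 had 1 peak, Lhx2 had 3 and Lhx9 had 2. The 4 peaks of Lhx2 and the 3 of Lhx9 thus each include 1 outside the gene. With flanks of 20 kb the number of peaks of each of the 7 genes was that at 10 kb. With the widest 10% called broad (at least 3743 bp), 1 member, Emx2, was broad. The Lhx9 region was 1255 bp wide with peaks not joined, and with a gap of 3 kb the Lhx2 region was 5038 bp wide, below the bound of 5667.8 bp for the widest 5% at that gap. The count of members with a peak at the start was 3 with the summit in the window, where 54.9% of protein-coding genes had one. It was also 3 with either gene end used for every gene (56.3% of protein-coding genes). With 2500 bp around the start it was 5 (58.7% of protein-coding genes), and in the main setting 4 (57.5%). The use of gene ends and the restriction to genes as long as the members were chosen after seeing the data. No paired analysis was possible because there is 1 library of each kind and no test. Marks at Otx2 and Tbr1 too weak for the caller's p cutoff would not be detectable in this list.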
